A study of Mus musculus with 768 samples.

Results

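The 10 genes described here encode ligands, receptors, a receptor-modifying enzyme and nuclear effectors of the Notch pathway. They are the ligands Jag1 and Dll1, the receptors Notch1 and Notch2, the glycosyltransferase Lfng, and the effectors Hes1, Hes5, Hey1, Hey2 and Heyl. They were looked up by symbol, and each was found in both deposited count tables, as 10 of 52636 genes listed. Cells came from organoids grown from the cochlea of postnatal day 2 mice carrying the Sox2-GFP, Fgfr3-CreERT2 and Ai14-tdTomato alleles. Flow cytometry had enriched the starting population for the greater epithelial ridge (GER), the epithelium on the inner side of the hair cell region of the cochlear duct. All groups had the same alleles and the same medium, DMEM/F-12 with N-2, B-27, and ampicillin and 2-phospho-L-ascorbic acid at 100 µg/mL each. It held the growth factors IGF1 at 50 ng/mL, EGF at 20 ng/mL and FGF2 at 10 ng/mL, and inhibitors of GSK3 (CHIR99021, 3 µM), of histone deacetylases (valproic acid, 500 µM) and of the TGFβ receptor (616452, 2 µM). The groups differ only in culture day, and no culture without these factors was among the samples. Fgfr3-CreERT2 is expressed from a supporting cell gene, and the labels do not say whether the recombinase was induced. Each sample is 1 cell, picked by hand and made into a SmartSeq2 library, which copies whole transcripts by PCR without molecular identifiers.

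The labels give each cell a day and a replicate number, and the replicate was taken as the culture. This gave 3 cultures on day 1 (192 cells), 3 on day 3 (255 cells) and 5 on day 7 (321 cells). Filters on reads, genes and mitochondrial reads removed 57 cells and kept 711. A culture kept between 37 and 86 cells and between 26391412 and 72483565 reads on genes. The labels do not state that cultures came from separate animals, so p-values measure the spread between these cultures, which may be technical. No cell repeated the counts of another. The epithelial label was checked with Epcam and Cdh1, and 99.7% of the retained cells had a read of either. Levels are given as CPM, the reads of a gene in a culture over the library total of that same culture, with TMM scaling. Tecta, which encodes a tectorial membrane protein made by the GER, had between 1139 and 3313 CPM in the 11 cultures. Sox2, a transcription factor of the prosensory and supporting cells, had between 6.81 and 19.9 CPM. Summed marker levels differed by day. Those of the 11 GER markers, of which Tectb was highest on days 1 and 3 and Tecta on day 7, ran from 10120 to 14335 CPM on day 1, 4372 to 8381 on day 3 and 2566 to 5191 on day 7, and 2 of 10 tested were called lower on day 7 than on day 1. The 6 epithelial markers summed to 3758 to 5814, 3889 to 5842 and 2139 to 3233 CPM (2 of 6 called lower on day 7 than on day 1), and the 7 neuronal markers to 65.8 to 158, 39.0 to 73.0 and 12.4 to 30.9 CPM (4 of 6 tested called lower). The 12 supporting cell markers, of which Gjb2 was highest on each day, summed to 725 to 1057.5, 743 to 959 and 843 to 1861 CPM. Of 11 tested, 1 was called higher and 2 lower on day 7 than on day 1. Lgr5 had 116 to 188 CPM on day 1 and 15.6 to 39.8 on day 7, and Gjb2 had 189 to 325 and 356 to 1306. The part of these markers in the results on the Notch genes was not tested.

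Notch signalling passes between neighbouring cells. A ligand of the Jagged or Delta family on one cell binds a Notch receptor on the next, the receptor is cut, and its intracellular domain joins the DNA-binding protein RBPJ to switch on genes such as those of the Hes and Hey families, which encode transcriptional repressors. In the cochlea, Jag1 marks and helps to specify the prosensory domain, and Dll1 and Jag2 made by new hair cells act on the Notch receptors of their neighbours to hold them as supporting cells.

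The sequence that RBPJ is known to bind, TGGGAA with its longer form GTGGGAA, was looked up in the RefSeq promoters of the members (GRCm38.p6, from 250 bases before to 50 after the annotated start). Both strands were searched, and every GTGGGAA is also a TGGGAA. The promoters of 7 of the 10 members were in the table. Those of Hes1, Hey1 and Heyl were not. Hes5 and Hey2 each held 2 matches of TGGGAA, all of them also GTGGGAA, and Lfng held 2, of which 1 was GTGGGAA. No match lay in these windows for Jag1, Dll1, Notch1 or Notch2. Of 32851 promoters of the same length, 25.6% held TGGGAA and 6.38% held GTGGGAA. Hes5 and Hey2 are shown because both carry the letters on both strands, and Notch1 because it is the member with a promoter in the table whose summed level differed between days. Each is written 5′ to 3′ on the strand of its gene, with matches in capitals. TTCCCAC is GTGGGAA on the opposite strand.
Hes5 (chr4:154960673-154960972, plus strand): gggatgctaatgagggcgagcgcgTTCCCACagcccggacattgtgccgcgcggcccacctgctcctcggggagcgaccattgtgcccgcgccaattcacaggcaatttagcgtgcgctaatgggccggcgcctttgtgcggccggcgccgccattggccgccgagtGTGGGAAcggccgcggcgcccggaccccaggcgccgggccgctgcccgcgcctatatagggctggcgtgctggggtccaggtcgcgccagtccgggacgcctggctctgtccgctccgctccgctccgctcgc
Hey2 (chr10:30842734-30843033, minus strand): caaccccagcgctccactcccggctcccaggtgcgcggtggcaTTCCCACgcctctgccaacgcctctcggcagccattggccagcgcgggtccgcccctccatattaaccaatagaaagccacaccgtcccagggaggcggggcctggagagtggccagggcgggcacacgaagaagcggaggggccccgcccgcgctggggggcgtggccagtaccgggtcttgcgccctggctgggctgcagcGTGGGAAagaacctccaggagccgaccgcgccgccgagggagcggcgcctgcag
Notch1 (chr2:26503773-26504072, minus strand): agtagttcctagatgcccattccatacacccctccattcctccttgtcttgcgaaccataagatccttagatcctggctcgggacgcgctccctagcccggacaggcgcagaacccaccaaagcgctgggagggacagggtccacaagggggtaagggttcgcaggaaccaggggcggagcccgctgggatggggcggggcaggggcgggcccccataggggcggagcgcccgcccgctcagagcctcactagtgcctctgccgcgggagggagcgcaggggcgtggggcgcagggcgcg
In Hes5 the first letters of the TGGGAA matches lay 226 and 82 bases before the start, and in Hey2 they lay 207 and 3 bases before it. A match is a description of the letters and not a measured binding site.

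Between day 1 and day 7 the summed RNA of Heyl, Hey1 and Notch1 rose, and that of Heyl and Hey1 also rose between day 3 and day 7. Heyl differed most, from a mean of 13.4 CPM on day 1 to 245 on day 7. Jag1 and Hes1 had means about as far apart as Notch1 but a wider spread between day 7 cultures, and neither passed the test. No member passed the test between day 1 and day 3, Notch2 and Hey2 passed in no comparison, and Dll1 and Lfng were found in few cells on any day. Of the 9 members tested (Lfng was under the filter on low counts), edgeR called 0 for day 3 against day 1, where 0.0115% of the 17466 genes tested were called. Of the members, 3 were called for day 7 against day 1, all higher, and so were 7.11% of all genes, with 3.55% called higher. Against day 3, 2 members were called, both higher on day 7, and 0.968% of all genes, with 0.183% called higher. The median log2 fold change of the 9 members was 0.15, 1.07 and 0.97 in the same order, and that of all genes was 0.02, 0.00 and 0.01. Day 7 enters both of the last comparisons, and day 1 both of the first, so these values share cultures.

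**Figure D1:**
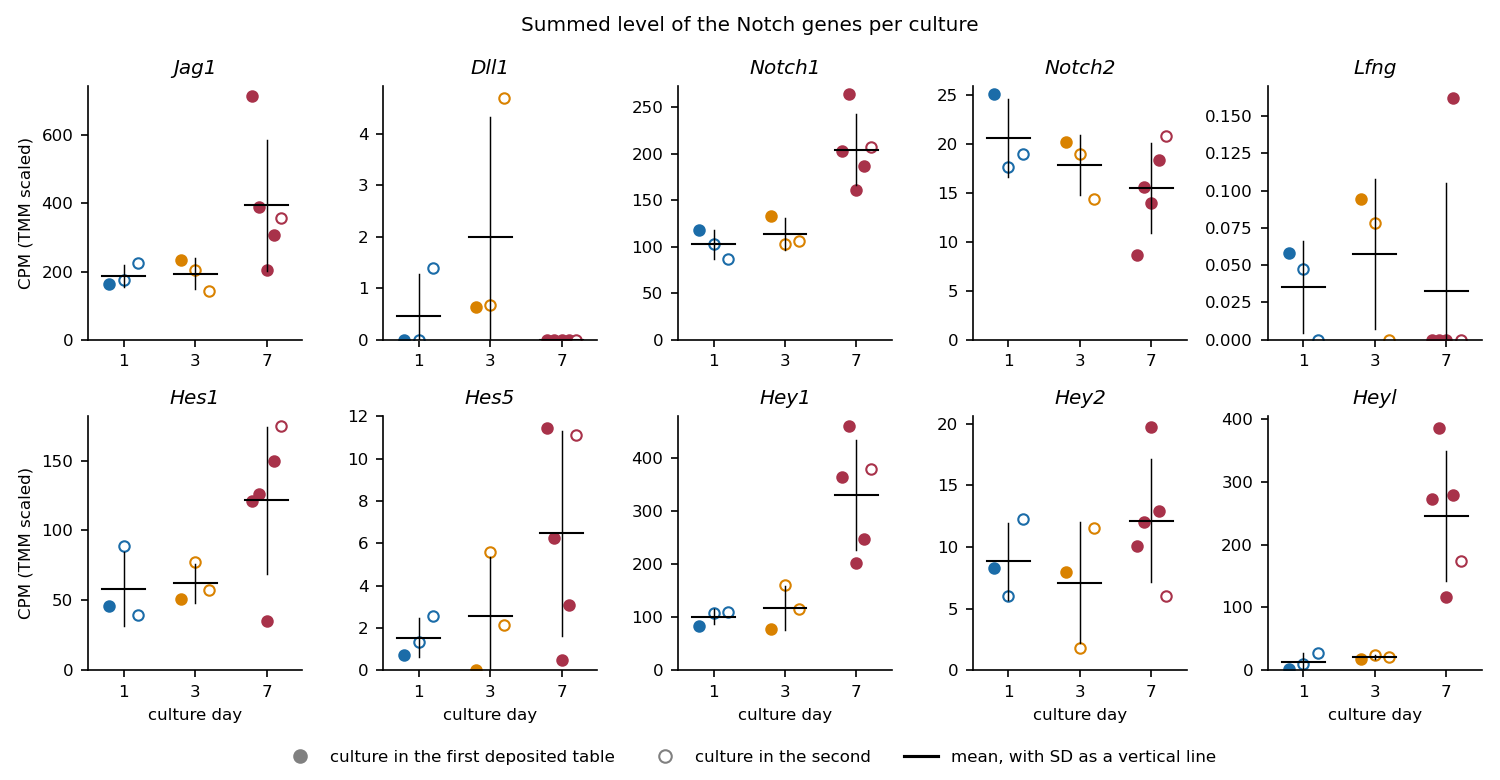
Level of each of the 10 genes in each culture, in CPM with TMM scaling on a linear axis that starts at 0 and differs by panel. Each point is a culture (3 on day 1, 3 on day 3, 5 on day 7), filled for the first deposited table and open for the second, with the mean as a horizontal line and the SD as a vertical line cut at 0. Every day 7 culture lies above every day 1 and day 3 culture for Heyl, Hey1 and Notch1, and day 7 culture 3 is the lowest day 7 point for those genes and for Jag1, Hes1 and Hes5.

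Of the ligands Jag1 and Dll1, Jag1 (ENSMUSG00000027276.7, chromosome 2 from 137081456 to 137116644 on GRCm38, a protein-coding gene) held nearly all of the reads. Its level in the day 1 cultures was 164, 175 and 224 CPM, and in the day 3 cultures 233, 205 and 144 CPM. The day 7 cultures 1 to 5 had 715, 388, 205.5, 306 and 357 CPM. Days 1 and 3 overlapped, and 4 of the 5 day 7 cultures lay above all of them, while culture 3 lay among them. The log2 fold change was 1.07 for day 7 against day 1 (edgeR adjusted p = 0.0752, SE 0.34) and 1.02 against day 3 (edgeR adjusted p = 0.221, SE 0.34), so Jag1 was not called. Without day 7 culture 3 the first of these was 1.18 with an edgeR adjusted p of 0.0465. The DESeq2 Wald test called Jag1 in both comparisons, with adjusted p = 0.0184 and 0.0387. Over the 25 alternatives the adjusted p of Jag1 ran from 0.0184 to 0.422 against day 1 and from 0.0387 to 0.992 against day 3.

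Dll1 (ENSMUSG00000014773.13, chromosome 17 from 15367354 to 15376872, a protein-coding gene), the Delta ligand of nascent hair cells, was found in 9 of the 711 retained cells. On day 1 a read was present in 1 of 182 cells, with 37 reads, and the 3 cultures had 0, 0 and 1.40 CPM. Day 3 had 317 reads in 8 of 228 cells, and its cultures had 0.63, 0.68 and 4.70 CPM. On day 7 there was no read in 301 cells. With 3 reads as the floor for the 5 day 7 cultures together, Dll1 reads per total reads were at least 161-fold lower on day 7 than on day 3. The limit by reads against day 1 was 25.6-fold. Both limits cover counting error of reads only, and reads are PCR copies that came from 8 cells on day 3 and 1 cell on day 1. By cells, 8 of 228 on day 3 beside none of 301 on day 7 sets a much smaller limit than the reads do. For day 1, 1 of 182 cells beside none of 301 on day 7 sets no limit at all. The limits by reads also rest on few cultures. Without day 3 culture 3 the first was 55.7-fold, and without day 1 culture 2 the second was 53.9-fold. Without day 1 culture 3, day 1 had no read and no limit could be given. The fitted comparison did not pass (edgeR adjusted p = 0.142 against day 3 and 0.0898 against day 1). Cells with a read in at least 2 of the hair cell genes Atoh1, Pou4f3, Gfi1, Myo7a and Pvalb numbered 3 on day 1, 10 on day 3 and 1 on day 7. On day 3, 6 of the 8 Dll1 cells were among those 10, and they held 93.1% of the Dll1 reads, while 1 cell alone held 40.7%. On day 1 the only Dll1 cell was not among the 3. The summed level of the 16 hair cell markers ran from 87.3 to 139 CPM on day 1, from 68.3 to 430 on day 3 and from 44.7 to 87.9 on day 7, and 2 of 14 tested were called lower on day 7 than on day 3. The part of these cells in the Dll1 result was not tested over cultures.

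The receptor Notch1 (ENSMUSG00000026923.15, chromosome 2 from 26457903 to 26516663, a protein-coding gene) had 118, 103 and 86.5 CPM in the day 1 cultures. The day 3 cultures had 133, 103 and 106 CPM. The day 7 cultures had 203, 264, 160.4, 186 and 207 CPM. Each day 7 culture lay above each earlier one, whereas days 1 and 3 overlapped. Notch1 rose by 0.99 on the log2 scale from day 1 to day 7 (edgeR adjusted p = 0.0120, SE 0.20). Against day 3 the log2 fold change was 0.84 (edgeR adjusted p = 0.0689, SE 0.19), which did not pass. It passed in 4 of the 25 alternatives, namely the DESeq2 Wald test (adjusted p = 0.00243), a mean CPM of at least 5 (edgeR, 0.0475), the stricter cell filter (edgeR, 0.0465) and the fit without proliferating cells (edgeR, 0.0287), and its adjusted p ran up to 0.992. Leaving out day 1 culture 3 ended the call against day 1 (edgeR adjusted p = 0.0570), and over the 25 alternatives the adjusted p ran from 0.000203 to 0.326. Notch2, a second receptor that binds the same ligands, had between 17.7 and 25.1 CPM on day 1, between 14.4 and 20.2 on day 3 and between 8.68 and 20.8 on day 7. These ranges overlapped, and the log2 fold change of day 7 against day 1 was -0.41 (edgeR adjusted p = 0.451, SE 0.30). Lfng, which encodes the Lunatic fringe enzyme that adds sugars to Notch receptors and is a known supporting cell gene, had 26 reads in 10 cells. No culture exceeded 0.16 CPM, and no cell held more than 7 reads.

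The effector Heyl (ENSMUSG00000032744.4, chromosome 4 from 123233556 to 123249875, a protein-coding gene) had 2.12, 10.4 and 27.8 CPM in the day 1 cultures and 17.9, 24.1 and 21.1 CPM in the day 3 cultures. In the day 7 cultures 1 to 5 it had 272, 385, 117, 278 and 173 CPM. The lowest day 7 value was above the highest earlier one, and days 1 and 3 overlapped. Heyl rose by 4.20 on the log2 scale from day 1 to day 7 (edgeR adjusted p = 0.00561, SE 0.70) and by 3.54 from day 3 to day 7 (edgeR adjusted p = 0.0308, SE 0.67). The call against day 1 stood without each of the 11 cultures in turn, and the adjusted p over the 25 alternatives reached 0.0812 in the first deposited table alone. Leaving out day 1 culture 2, any day 3 culture, or day 7 culture 1 or 2 ended the call against day 3, with edgeR adjusted p from 0.0503 to 0.138.

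Hey1 (ENSMUSG00000040289.8, chromosome 3 from 8663359 to 8667256, a protein-coding gene), a related repressor, had 83.7, 107 and 110.1 CPM on day 1 and 77.6, 159.8 and 115 CPM on day 3. On day 7 it had 363, 459, 202 CPM in cultures 1 to 3, then 246 and 379 CPM in cultures 4 and 5. Here too every day 7 culture was above every earlier one. Hey1 rose by 1.72 from day 1 to day 7 (log2, edgeR adjusted p = 0.00731, SE 0.30) and by 1.49 from day 3 to day 7 (edgeR adjusted p = 0.0397, SE 0.30). Without day 1 culture 1 the adjusted p against day 1 was 0.05002 and just missed the threshold of 0.05. Against day 3, only the fits without day 7 culture 3 or 4 kept the call, and without any 1 of the other cultures the edgeR adjusted p lay between 0.0581 and 0.159. That comparison was also lost with upper quartile scaling (edgeR adjusted p = 0.0547), without the cells carrying hair cell transcripts (0.0535) and without proliferating cells (0.1001).

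Both of these genes are also used by blood vessel cells, so markers of those cells were read beside them. The summed level of 8 pericyte and smooth muscle markers was 10.7 to 20.6 CPM on day 1, 15.5 to 63.9 on day 3 and 0.45 to 4.03 on day 7. Of the 6 tested, 2 were called lower on day 7 than on day 1 and 3 lower than on day 3. The 8 endothelial markers summed to between 38.1 and 45.9, 32.8 and 55.2, and 20.6 and 39.7 CPM on the 3 days. Egfl7 was the main gene, and Pecam1, Kdr, Tie1 and Cldn5 were at 0 in every culture. Tek had 2.48 to 6.13 CPM on day 1, 0.508 to 11.017 on day 3 and 0 to 5.24 on day 7. Emcn reached 24.4 CPM in a day 3 culture and was at 0 on days 1 and 7. Cdh5 had at most 0.466 CPM. The 10 mesenchyme markers summed to 867 to 1023 CPM on day 1, 511 to 652 on day 3 and 387 to 1809 on day 7, nearly all from Lum. Of 6 tested, 2 were called higher and 1 lower on day 7 than on day 1. Twist1 had at most 0.047 CPM on day 1 and 2.68 to 11.1 on day 7. Prrx1 was at 0 on day 1 and had 0.559 to 13.2 CPM on day 7. Col1a2 went the other way, from 3.87 to 18.0 CPM on day 1 to at most 0.614 on day 7. The part of these vessel and mesenchyme markers in the Notch gene results was not tested.

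Hes1, the effector with the broadest known use in progenitor cells, had 45.6, 88.6 and 39.7 CPM on day 1 and 51.1, 77.7 and 57.5 CPM on day 3. On day 7 it had 121, 126, 35.4, 149.7 and 175 CPM. Day 7 culture 3 was the lowest of all 11 cultures and the other 4 were the highest, so the days overlapped. The log2 fold change from day 1 to day 7 was 1.07 (edgeR adjusted p = 0.151, SE 0.43), and without culture 3 it was 1.25 with an adjusted p of 0.0341, within a range of 0.0341 to 0.500 over the 25 alternatives. Hes5, a Notch effector of cochlear supporting cells, stood much lower, between 0.73 and 2.54 CPM on day 1, 0.02 and 5.57 on day 3 and 0.47 and 11.4 on day 7. Hey2, known in the developing prosensory region, had 6.02 to 12.2, 1.82 to 11.6 and 5.98 to 19.7 CPM. The ranges of both genes overlapped between all days, with edgeR adjusted p = 0.346 for Hes5 and 0.668 for Hey2 in day 7 against day 1.

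**Figure D2:**
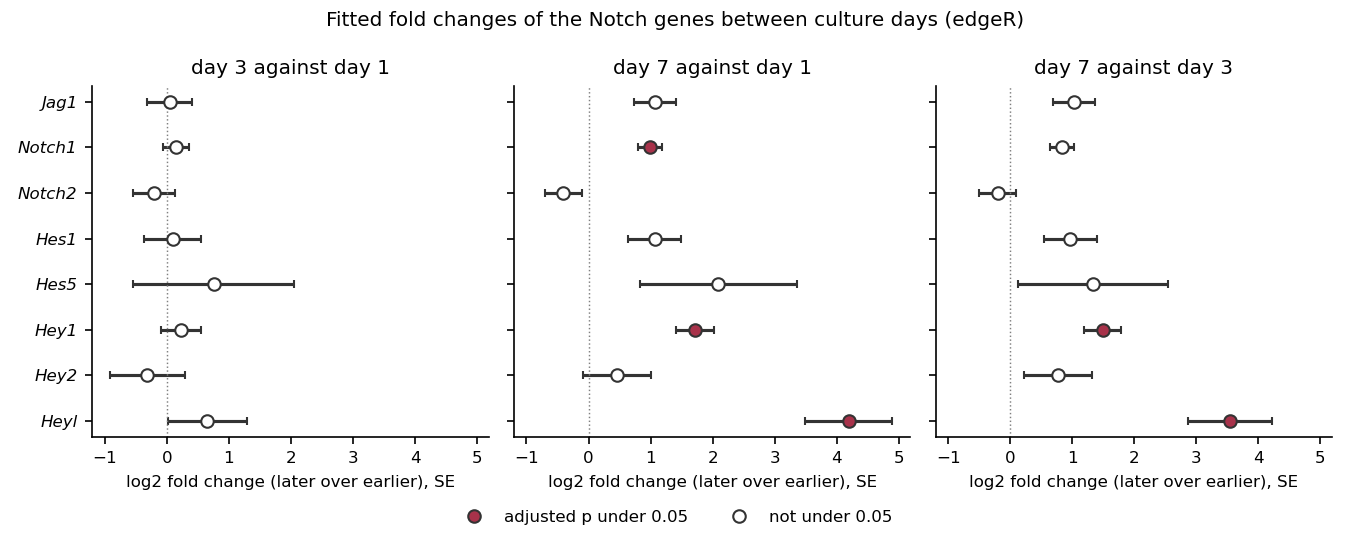
Fitted log2 fold change of the tested genes (horizontal axis, later day over earlier day, with bars of 1 SE) in the 3 comparisons of days, with filled points where the edgeR adjusted p is under 0.05. Dll1 is left out because all day 7 cultures are at 0, and Lfng because it was not tested. Filled points are those of Heyl, Hey1 and Notch1 against day 1 and of Heyl and Hey1 against day 3.

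The ranges of the cultures did not overlap for 0 of the 9 tested members between days 1 and 3, where 18% of all tested genes showed no overlap. Between days 1 and 7 this held for Heyl, Hey1 and Notch1, against 17.8% of all genes. For days 3 and 7 it held for those genes and for Dll1, which was at 0 on day 7, against 8.13% of all genes. The number of members with an unadjusted p under 0.05 was 0, 6 and 6 in the same order, and that of all genes was 1617, 4123 and 2066.

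The deposited tables split the cultures, since the first holds day 1 culture 1, day 3 culture 1 and day 7 cultures 1 to 4, and the second holds the rest. With the table as a term in the edgeR fit, the log2 fold change from day 1 to day 7 was 4.76 for Heyl (adjusted p = 0.0108), 1.94 for Hey1 (0.00605) and 0.91 for Notch1 (0.0215). In the first table alone it was 6.90, 1.87 and 0.73 for these genes, and in the second 3.19, 1.803 and 1.13. Each of these within-table values was above 0. In the first table none passed (edgeR adjusted p = 0.0812, 0.197 and 0.326), and in the second Heyl (0.0446) and Hey1 (0.0425) passed but Notch1 (0.108) did not. The first table holds 1 culture each of days 1 and 3 and the second 1 of day 7, and each lone culture was assumed to vary like the cultures of the other days. Against day 3, the log2 fold change of Heyl was 3.86 and 2.96 and Hey1 was 2.02 and 1.48 in the first and second tables, with edgeR adjusted p between 0.0888 and 0.584. With the table as a term, the edgeR adjusted p of this comparison was 0.0475 for Heyl and 0.0322 for Hey1.

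Cells in division were also unequal between days, at 16.5% to 23.7% of the cells of a culture on day 1, 56.9% to 70.2% on day 3 and 25.3% to 87.0% on day 7. Dividing cells were those with reads of 3 or more of Top2a, Mki67, Tpx2, Birc5, Cdk1 and Ccnb2. Day 7 culture 3, the lowest of its day for Heyl, Hey1, Notch1, Jag1, Hes1 and Hes5, had the highest share. Day 7 culture 5, at the lowest share of its day, was neither the lowest nor the highest of its day for Heyl, Hey1, Notch1, Jag1 or Hes5 and was the highest of all 11 for Hes1 (175 CPM). Its Hes5 level, 11.1 CPM, was the second highest. Without dividing cells the log2 fold changes from day 1 to day 7 were 4.87 for Heyl, 1.798 for Hey1 and 1.41 for Notch1, with edgeR adjusted p = 0.0153, 0.0250 and 0.0144. Over all cells these fold changes were 4.20, 1.72 and 0.99. Against day 3 the values without dividing cells were 4.53, 1.34 and 1.33 in the same order of genes, with edgeR adjusted p = 0.0287, 0.1001 and 0.0287. Over all cells they were 3.54, 1.49 and 0.84, so that of Hey1 was smaller without dividing cells. The part of dividing cells in the results was not tested.

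To separate how many cells had a transcript from how much each had, reads were drawn at random down to 200000 in each cell, and 695 cells were deep enough. Heyl was read in 15.4%, 14.1% and 18.4% of the cells of the day 1 cultures, in 25%, 33.3% and 31.9% on day 3, and in 89.7%, 86.5%, 69.6%, 79.5% and 68.0% on day 7. These shares did not overlap between any pair of days. Their means were 15.97% ± 2.21 for the 3 day 1 cultures, 30.1% ± 4.46 for the 3 of day 3 and 78.7% ± 9.76 for the 5 of day 7 (± SD). The exact permutation test (two-sided) gave p = 0.0179 for day 7 against either earlier day, and p = 0.1 for day 3 against day 1, in each case the smallest value the design allows. Without thinning the order of the days was the same, with the gene read in 17.0% to 27.9%, 30.6% to 37.1% and 72.0% to 89.7% of cells.

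Hey1 was read in a mean of 65.4% ± 1.82 of the cells on day 1, 65.4% ± 6.14 on day 3 and 91.7% ± 5.62 on day 7 (SD, n = 3, 3 and 5). Every day 7 culture was above every earlier culture, with an exact permutation p of 0.0179 against each of the earlier days. Jag1 was already present in 92.6% ± 2.49 of day 1 cells (SD, n = 3) and reached 99.2% ± 1.28 on day 7 (n = 5, exact permutation p = 0.0179 against day 1). Notch1 was read in means of 87.3%, 88.9% and 94.6% of cells, Hes1 in 77.8%, 79.0% and 92.2%, and Notch2 in 70.7%, 71.7% and 61.7%. Hey2 was read in 18.8%, 15.5% and 18.7%, and Hes5 in 5.34%, 5.39% and 8.72%. After Benjamini-Hochberg adjustment over the 30 exact permutation tests (10 genes in 3 pairs of days), none was under 0.05, and the smallest adjusted p was 0.0893. Even at the smallest p the design allows, a test can pass this adjustment only if many of the 30 reach it. That none passed therefore says little.

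**Figure D3:**
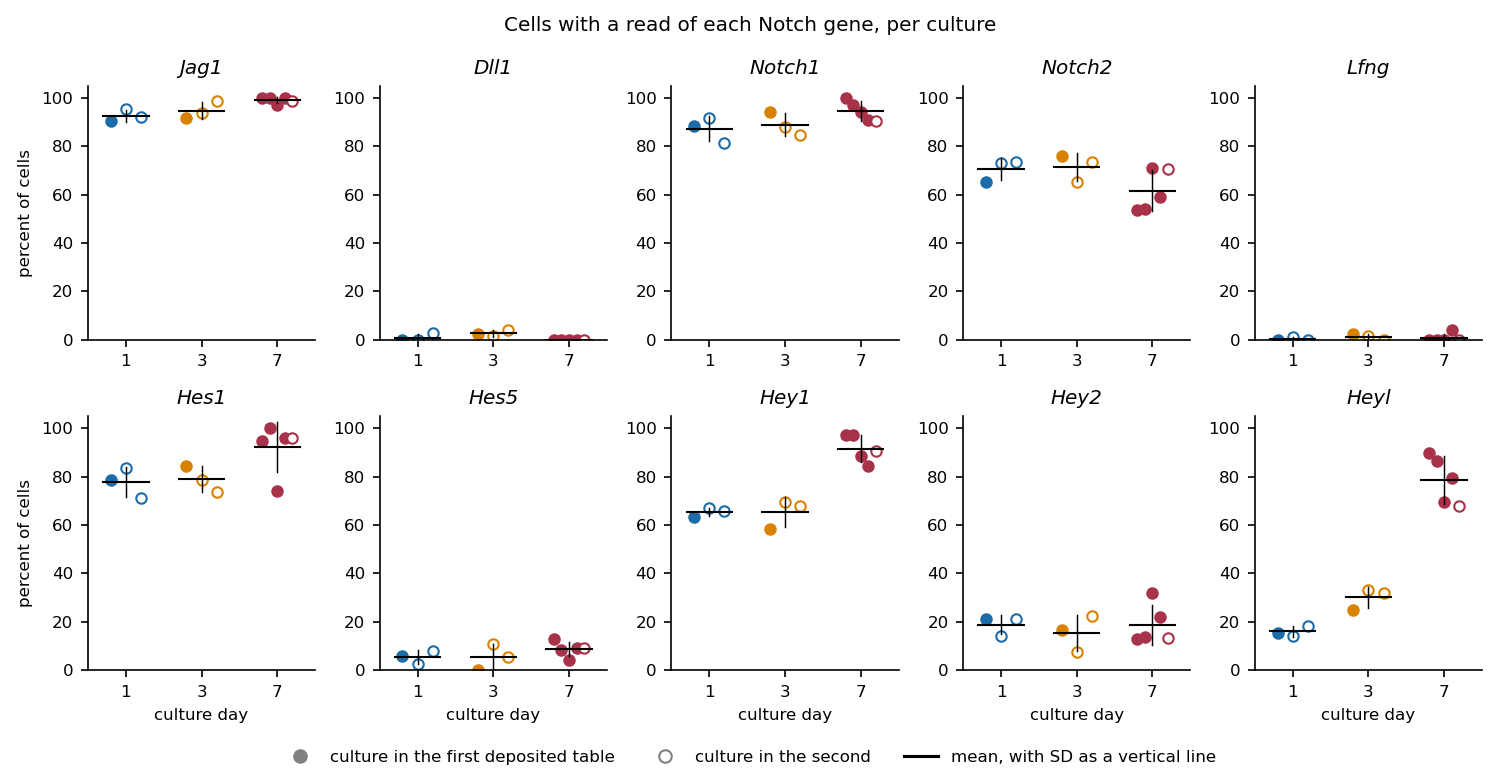
Percent of cells with at least 1 read of each gene after thinning to 200000 reads per cell, by culture and day, with points, mean and SD as in the plot of CPM. Heyl goes from 14.1% to 18.4% of cells on day 1 to 68.0% to 89.7% on day 7, while Jag1 and Notch1 are above 80% in every culture and Dll1, Lfng and Hes5 are below 15%.

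In the cells that had a read, the mean of the culture medians of the thinned count was highest on day 7 for Heyl, Hey1 and Jag1. This also held for Notch1, Hes1, Hes5 and Hey2, and it did not hold for Notch2. The median thinned count of Heyl in such cells was 11.7 ± 9.07 on day 1, 10.2 ± 1.61 on day 3 and 54.3 ± 26.6 on day 7 (mean of culture medians, SD, n = 3, 3 and 5). For Hey1 it was 20.3 ± 2.08, 23.3 ± 10.1 and 59.0 ± 20.2, and for Jag1 23.7 ± 3.79, 27.5 ± 5.63 and 68.6 ± 39.6. For Heyl the means of both quantities, the share of cells and the count in those cells, were highest on day 7, whereas Jag1 was present in nearly every cell on each day. None of the 22 exact permutation tests of these medians passed after adjustment, with a smallest adjusted p of 0.218. Here too the number of cultures left little room to pass.

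Only 0.88%, 2.69% and 0% of thinned cells had a Dll1 read on days 1, 3 and 7, as means over cultures. The day 7 value is 0 of 298 cells, which allows a share of up to 1.01% for counting error only, with the cells of the 5 cultures pooled. In the 13 thinned cells of days 1 and 3 that carried hair cell transcripts, Dll1 was read in 38.5%, against 0.521% of the 384 other cells. All of the 13 with a Dll1 read were from day 3, and none of the 3 from day 1 had one. Jag2, another ligand of hair cells, was read in 76.9% of the 13 cells against 24.2% of the others. Hes1 was read in 46.2% of these cells against 80.5% of the others, and Hey1 in 30.8% against 66.4%. Heyl was read in 38.5% against 22.9%, Hes5 in 7.69% (1 cell) against 4.69%, and Hey2 in 15.4% against 16.7%. Notch1 (84.6% against 89.1%) and Jag1 (92.3% against 94.0%) were read in most cells of both kinds. These are pooled counts of few cells from several cultures and were not tested.

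The effectors were also counted together in each cell. Cells with a read of at least 3 of Hes1, Hes5, Hey1, Hey2 and Heyl made up 24.8% ± 3.16 of a day 1 culture (SD, n = 3), 28.2% ± 2.79 of a day 3 culture (n = 3) and 73.2% ± 11.5 of a day 7 culture (n = 5). The day 7 cultures ran from 56.5% to 83.8%, above the highest earlier value of 30.3%. A ligand, a receptor and an effector were all read in the same cell in 76.3% to 88.2% of cells on day 1, 82.1% to 87.5% on day 3 and 94.2% to 100% on day 7. Hey1 and Heyl were read together in 13.1% of all thinned day 1 cells, 24.8% of day 3 cells and 72.5% of day 7 cells. On each day, over 80% of the cells with Heyl also had Hey1. Each of these shares follows in part from the shares of the single genes given above.

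**Figure D4:**
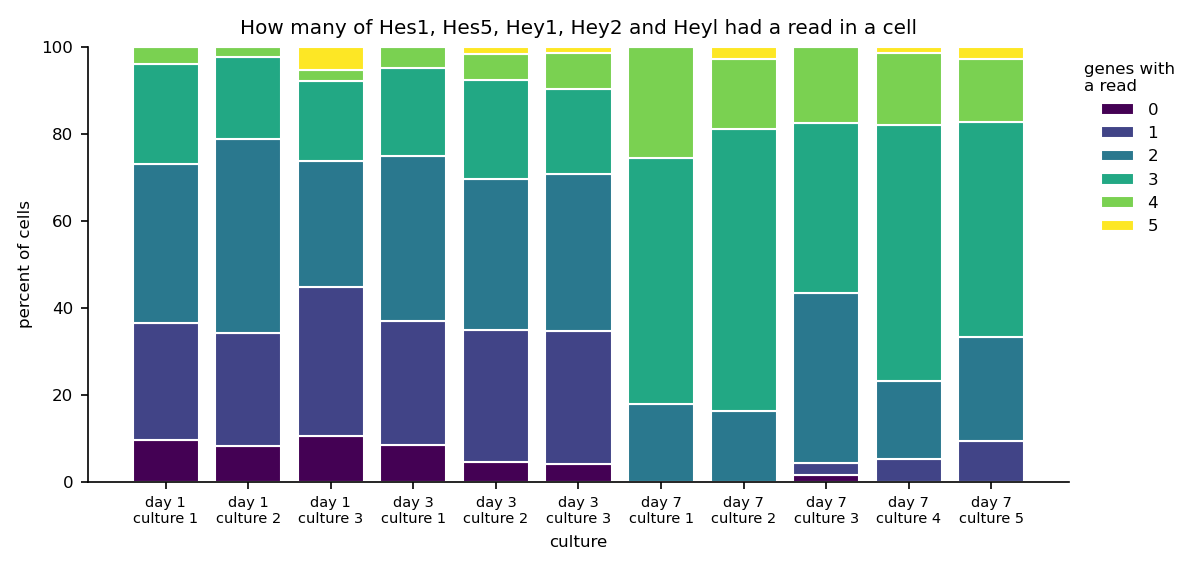
Stacked bars of the percent of thinned cells of each culture in which 0 to 5 of the effectors Hes1, Hes5, Hey1, Hey2 and Heyl had a read. Cells with 3 or more make up 21.2% to 30.3% of the day 1 and day 3 cultures and 56.5% to 83.8% of the day 7 cultures.

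Levels were compared between genes as CPM per kb of union exon length. On day 1 the medians over cultures were 32.8 for Hey1, 30.1 for Jag1 and 22.4 for Hes1, whose ranges overlapped, then 7.21 for Notch1, apart from both neighbours. Heyl (2.02), Hey2 (1.796), Notch2 (1.76) and Hes5 (0.96) followed with overlapping ranges, and Lfng and Dll1 were below 0.35 in every culture. Day 3 had the same first 4 genes, and Heyl at 4.14 stood apart from Notch1 above it and Notch2 below. Its range (3.51 to 4.72) still overlapped the wide range of Hes5 (0.012 to 4.09), which ranked lower. On day 7 Hey1 was first at 111, followed by Hes1 at 62.0, Jag1 at 61.2 and Heyl at 53.2, which overlapped their neighbours. Notch1 at 14.3 now stood below Heyl with no overlap, although its highest culture (18.5) was above the lowest culture of Hes1 (17.4). Hes5 (4.60), Hey2 (2.61) and Notch2 (1.45) overlapped in turn, and Dll1 and Lfng had a median of 0. Heyl thus went from among the low effectors on day 1 to the group of Hey1, Hes1 and Jag1 on day 7. With the longest transcript in place of the union of exons, Hey2 had 3.24 on day 1, above Heyl at 2.28, Hes1 had 39.2 on day 3, above Jag1 at 36.5, and on day 3 the ranges of Heyl and Hey2 overlapped.

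Relations between members were then read across the cells of each culture. The mean over cultures of the Spearman correlation across the cells of a culture was 0.30 for Hey1 with Heyl, above 0 in 11 of 11 cultures. It was 0.27 for Jag1 with Heyl and 0.23 for Jag1 with Hey1, again above 0 in all 11, and 0.25 for Notch1 with Heyl. Hes5 with Heyl had 0.28 over the 10 cultures in which both were read. Jag1 with Hes1 had -0.08, with a lowest value of -0.38. Cells of 1 culture share library handling and depth, most of these values are weak, and they are given as a description.

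**Figure D5:**
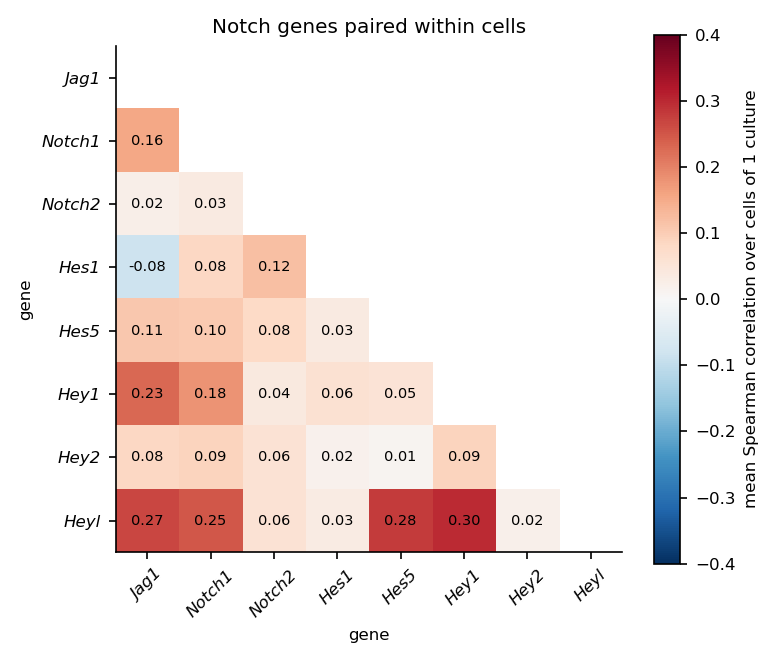
Mean over cultures of the Spearman correlation of thinned counts across the cells of 1 culture, for the 8 genes with a read in more than 5% of cells, red for positive and blue for negative values. The largest values are those of Heyl with Hey1, Hes5, Jag1 and Notch1 (0.25 to 0.30), and the value of Jag1 with Hes1 is -0.08.

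Of 9090 genes read in at least 20% of cells, those most like Jag1 within cultures were Igfbp5 (mean Spearman 0.39), Gjb2 (0.32) and Sall2 (0.30). Gjb2, which encodes the gap junction protein connexin 26 of cochlear supporting cells, also led for Heyl (0.26), followed by the growth factor gene Fgf10 (0.26) and Gpc1 (0.26). Hey1 was most like Pls1 (0.31), Fstl1 (0.31) and Ext2 (0.30). Notch1 was nearest to Gsn, Ddit4l and Gpc1 (0.22 to 0.23). Notch2 went with the cell division genes Nuf2 and Arhgap11a and with Tuba1c (0.21 to 0.23). It was as closely related to the number of genes detected in a cell (mean Spearman 0.24, above 0 in 10 of 11 cultures). With summed reads of the dividing cell genes, Notch2 had 0.15. Hey1 had 0.20 with the number of genes detected. The part of that number in these likenesses was not tested. Hes1 was nearest to Dpysl2 (0.26), the immediate early gene Egr1 (0.23) and Irx3 (0.23). Over the 11 cultures, among 6800 genes with a mean of at least 20 CPM, the highest Pearson correlations of log2 CPM were with Ak3 for Heyl (0.95), Fam58b for Hey1 (0.96) and Chtop for Notch1 (0.97). Next came Dars and Ctnnbl1 for Heyl (0.95 and 0.94), Plat for Hey1 (0.96), and Rpl10-ps3 and Oat for Notch1 (0.96 and 0.95). These points share the day of culture, which separates both genes of such a pair.

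The rest of the pathway was read from a list of 57 other genes, of which 53 were tested. None was called for day 3 against day 1. Between day 1 and day 7, 2 were called higher and 4 lower, or 11.3% of the list beside 7.11% of all genes, and the median log2 fold change of the list was -0.27. Between day 3 and day 7, 1 was called, lower. The ligands were Jag2, Dll3, Dll4, Dlk1 and Dlk2. Jag2 had 15.2 ± 7.48, 12.9 ± 3.14 and 8.29 ± 5.23 CPM (SD) in the 3 cultures of day 1, the 3 of day 3 and the 5 of day 7, and was not called (edgeR adjusted p = 0.314 for day 7 against day 1). Dlk2, a Delta-like protein that lacks the domain by which ligands activate Notch, had 5.78 ± 3.46, 18.2 ± 8.98 and 0.163 ± 0.354 CPM on the 3 days. It fell by 5.02 on the log2 scale from day 1 to day 7 (edgeR adjusted p = 0.0330, SE 1.27) and fell by 6.67 from day 3 (edgeR adjusted p = 0.0392, SE 1.34).

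Among receptors and the enzymes that modify them, 0 of 6 tested were called in any comparison by edgeR. Notch3 had 13.7 ± 6.81, 9.73 ± 0.972 and 8.32 ± 1.298 CPM on the 3 days (edgeR adjusted p = 0.219 for day 7 against day 1). Of 7 genes for ligand endocytosis, Neurl1b, a ubiquitin ligase that acts on Notch ligands, rose from 2.64 ± 0.415 CPM on day 1 to 9.46 ± 3.602 on day 7 (SD, n = 3 and 5), with a log2 fold change of 1.84 (edgeR adjusted p = 0.0296, SE 0.45). Of 9 cleavage genes, Adam10, which encodes the protease that cuts ligand-bound Notch outside the membrane, fell by 1.13 on the log2 scale between the same days (235 ± 70.4 to 108 ± 15.4 CPM, edgeR adjusted p = 0.0196, SE 0.25). Genes of the nuclear complex numbered 13, and 1 was called lower. Rbpj itself had 10.1 ± 2.32, 8.81 ± 3.04 and 9.14 ± 2.67 CPM, with a log2 fold change of -0.14 from day 1 to day 7 (edgeR adjusted p = 0.865, SE 0.36). Of 10 turnover and feedback genes, Nrarp, a feedback inhibitor that is itself a Notch target, rose from 1.03 ± 0.813 to 7.31 ± 2.91 CPM with edgeR adjusted p = 0.0294 (log2 fold change 2.83, SE 0.69), and against day 3 its edgeR adjusted p was 0.0920. Of 4 tested genes related to Hes, 1 was called lower on day 7 than on day 1.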

How the data were processed

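Expected counts, estimated reads of each gene in each cell, were deposited in 2 tables, and 10.6% of the nonzero values had a fractional part. Per the submitters' processing notes, STAR 2.5.3a, RSEM 1.3.0 and the builds mm10 and GRCm38 were used; the annotation release is not given in the sources used here. Coordinates and gene lengths come from GENCODE M21 (GRCm38), with coordinates only for genes of the same identifier version, which leaves out Hes1.

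The deposited expected counts were rounded to whole reads. Cells under 50000 reads or 1500 genes, or over 20% mitochondrial reads, were left out. The sums per culture, between 26391412 and 72483565 reads, went into edgeR (version 4.0.16, R 4.3.3) with TMM factors, filterByExpr and the quasi-likelihood F-test, in 1 fit over 11 cultures whose sole covariate was day. Calls were made at a Benjamini-Hochberg adjusted p under 0.05 over 17466 genes. In simulated counts for day 7 against day 1 on 17466 genes, 82% of 100 genes changed 4-fold and 98% of 100 genes changed 16-fold were called, with 6 false calls. The changed genes were drawn from those with a mean over 5 CPM. Smaller changes and lower levels were not simulated, so these rates do not cover members of that kind. Shares of cells used cells thinned to 200000 reads and exact permutation tests over cultures, two-sided, which cannot go below 0.1 for 3 against 3 cultures or 0.0179 for 3 against 5. Reads are PCR copies, so limits from counts cover counting error only. Alternatives covered scaling, filters, tests (DESeq2 1.42.0, limma 3.58.1), cell makeup, deposited table and leaving out cultures.

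Members, the pathway and marker lists (12 lists of marker genes, of which Hes5 and Lfng stand in the supporting cell list) and tests were chosen with earlier results of these data known. All members are named. Of the pathway list, up to 4 called genes with the smallest adjusted p per comparison are named, with Rbpj, Jag2 and Notch3. Genes like a member are the 3 with the highest correlation, predicted genes left out, and 1 of them is not reported here.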

Additional observations from a re-analysis of the deposited data

Results flagged for a closer look

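Day 7, with 5 cultures, is the only day with enough cultures to look for a culture that stands apart, and this was done for 18 sets of day 7 values (CPM and percent of cells, per member with any read). Of these, 3 sets were picked out. A rate of about 1 set in 20 by chance would hold for independent values without ties, which these are not, so the number was not compared with it. Hes1 was read in 73.9% of the thinned cells of day 7 culture 3, against 94.9% to 100% in the other 4, and the gap was 0.80 of the whole range, above the critical value of 0.71. The same culture had 87.0% of its cells in division, the highest share of the 11 cultures. Lfng was read in day 7 culture 4 and in no other day 7 culture, at 0.162 CPM and in 3.85% of the thinned cells. With the other cultures at 0 the gap is the whole range by construction, and both values describe the same cells. The CPM value rests on 11 reads in 4 cells, of which 3 still had a read after thinning.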

How the results depend on the processing

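Between day 1 and day 7, 3 members were called. The number was 0 in the first deposited table alone, where days 1 and 3 keep 1 culture each that is assumed to vary like the others, and it ran from 2 to 5 when cultures were left out in turn, with 5 without day 7 culture 3. Between day 3 and day 7, 2 were called, and the number was 1 with upper quartile scaling, 1 without cells carrying hair cell transcripts, 3 with a mean CPM of at least 5 or the stricter cell filter, 4 with the DESeq2 Wald test, 0 in the first table alone, 0 in the second (where day 7 keeps 1 culture) and 0 to 2 when cultures were left out in turn. With the replicate number as a block, 3 members were called for day 7 against day 1 and 0 for day 7 against day 3 (Heyl 3.69, edgeR adjusted p = 0.0748; Hey1 1.55, 0.0571). Deviations from the day mean correlated weakly between same-numbered cultures (9 pairs, r from -0.010 to 0.061, median 0.029). For the 30 differently numbered pairs r ran from -0.085 to 0.072, with a median of -0.013. The median was thus slightly higher for equal numbers, but the labels do not say what equal numbers share. The number was therefore not a block in the main fit, and the calls against day 3 depend on that choice. No member was called for day 3 against day 1 under any alternative. No share of cells passed with 100000 reads per cell, without thinning or with a minimum of 5 reads. The smallest exact p of the design left little room to pass there too. Leaving out a culture of a compared day raises the smallest exact p these tests can give, so the 0 shares that passed then say nothing of stability. The 5 called fold changes kept their direction under all 25 alternatives.

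Sign changes fell on fold changes that were not called. For day 3 against day 1, Jag1 was -0.026 with DESeq2 size factors, -0.030 with upper quartile scaling, -0.057 with a mean CPM of at least 5, -0.026 with the DESeq2 Wald test, -0.19 without proliferating cells, -0.040 with the replicate block and -0.22 in the second table. Hes1 was -0.13 without proliferating cells, and in the first table Hes5 was -5.36 and Hey1 -0.15. When cultures were left out in turn, the range was -0.14 to 0.22 for Jag1, -0.0086 to 0.23 for Notch1, -0.11 to 0.55 for Hes1, -0.51 to 1.33 for Hes5, -0.054 to 0.43 for Hey1 and -0.85 to 0.15 for Hey2. In the second table, Notch2 was 0.19 and Hey2 -0.60 for day 7 against day 1, and 0.34 and -0.14 against day 3. Notch2 against day 3 was 0.082 without proliferating cells. The cause of these shifts was not tested. With the longest transcript as length, 9 of the 30 levels per kb moved by more than the SD between cultures, for Notch1 and Hey2 on each day, Hey1 on days 1 and 7 and Hes1 on day 3. The limits for Dll1 without a culture were added after seeing the data. Low counts limit Dll1, Lfng and Hes5, which few cells carried.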
